A study of Mus musculus with 4 samples.

Results

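Potassium channel genes were examined in whole-brain RNA of adult female mice with and without ADAR2, an RNA-editing enzyme that deaminates adenosines of double-stranded RNA to inosines. They were taken as every transcript cluster of the array whose gene symbol starts with Kcn, whatever its signal. This rule gave 101 clusters of 95 genes, among 33793 clusters in all. The probes of a transcript cluster all target the same locus and strand, and they are summarised to a normalized log2 signal, so a difference of 1 is a 2-fold change. There were 2 arrays of wild-type and 2 of Adar2-/- siblings of the 129SV strain, and all of them were Gria2 R/R, an allele that encodes the edited form of this glutamate receptor subunit and without which mice lacking ADAR2 die young. Wild type here therefore means Gria2 R/R with intact Adar2. The knockout was constitutive, and whole brain holds many cell types. The arrays measured transcript level and did not read the edited base of any mRNA.

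Potassium channels let potassium leave or enter the cell and thereby set the resting potential, end the action potential and limit how often a neuron fires. Voltage-gated members open on depolarisation, calcium- and sodium-activated members follow the ion load of a spike, inward rectifiers and 2-pore domain channels hold the membrane near rest, and auxiliary subunits change gating and surface delivery. Kcna1, which encodes the axonal Shaker-type subunit of the Kv1 family, is the potassium channel mRNA best known as an ADAR2 substrate. Its editing exchanges an isoleucine for a valine in the inner part of the pore and speeds recovery from inactivation.

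Markers of brain cells and of the targeted gene were read first. None of 6 neuronal, 6 astrocyte, 6 oligodendrocyte or 5 microglial markers lay at the level of the 4 Y-linked clusters, whose genes females do not carry and whose signals ran from 3.49 to 4.40. Adarb1, the targeted gene, read 10.50 and 10.45 in wild type and 9.16 and 8.96 in the knockout. Over all clusters the array medians were 6.03 and 6.06 for wild type and 6.09 and 6.08 for the knockout. The median of the potassium channel clusters was 7.94 and 8.01 in wild type and 7.90 and 7.91 in the knockout. Of the 101 clusters, 98 lay over the highest Y-linked value on all 4 arrays, and Kcnrg, which encodes a regulator of channel assembly, lay under it on all 4. The minus-strand Kcnab3 cluster and Kcnmb3 were at or under it on at least 1 array. RNA was isolated from 2 wild-type and 2 knockout mice, and p-values measure only the spread between these arrays.

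Kcna1, the edited member, lies on chromosome 6 (126636463 to 126645801, minus strand, in coordinates of the deposited annotation). Its log2 signal was 9.89 and 9.91 in wild type and 9.94 and 10.12 in the knockout. The wild-type arrays were nearly equal, and knockout replicate 2 stood above the other 3 arrays. The group means were 9.90 ± 0.014 (SD, n = 2) and 10.03 ± 0.13 (SD, n = 2). The difference of 0.13 on the log2 scale (SE 0.11) had a limma p of 0.299 and an adjusted p of 0.900. Its 95% interval ran from -0.15 to 0.41. Both knockout arrays were above both wild-type arrays, but an exact permutation test of 2 against 2 arrays cannot give a two-sided p below 0.333. Without knockout replicate 2 the difference was 0.04, and without knockout replicate 1 it was 0.22.

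Among all potassium channel clusters, 5 had an unadjusted limma p below 0.05. These were Kcnk1, Kcnmb3 and the minus-strand Kcnab3 cluster, which were higher in the knockout, and Kcnj2 and Kcnv1, which were lower. They make up 4.95% of the members, against 5.95% of all clusters on the array, so potassium channel genes did not pass this threshold more often than the array as a whole. In the same fit, 4.1% of the clusters above the median signal of the array passed it, and 79 of the 101 members lay there. Higher in the knockout were 3 of 101, or 2.97%, against 3.64% of all clusters, and lower were 2, or 1.98%, against 2.31%. No member passed an adjusted p of 0.05 (limma, Benjamini-Hochberg), where the share of all clusters was 0.0%, and the lowest adjusted p of a member was 0.834. A change of at least 2-fold together with an unadjusted p below 0.05 was met by 0 members and by 0.0681% of all clusters. Other scalings gave another split: after median centring 0 members were higher and 3 lower, where 6.01% of all clusters passed, and after quantile or cyclic loess normalization 1 was higher and 3 were lower, where 5.44% of all clusters passed in each. With wild type replicate 1 left out, 0 members had an unadjusted limma p below 0.05, against 3.61% of all clusters. With wild type replicate 2 left out 2 did, against 4.89%. With knockout replicate 1 or 2 left out 1 did, against 5.33% and 4.86%.

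**Figure D1:**
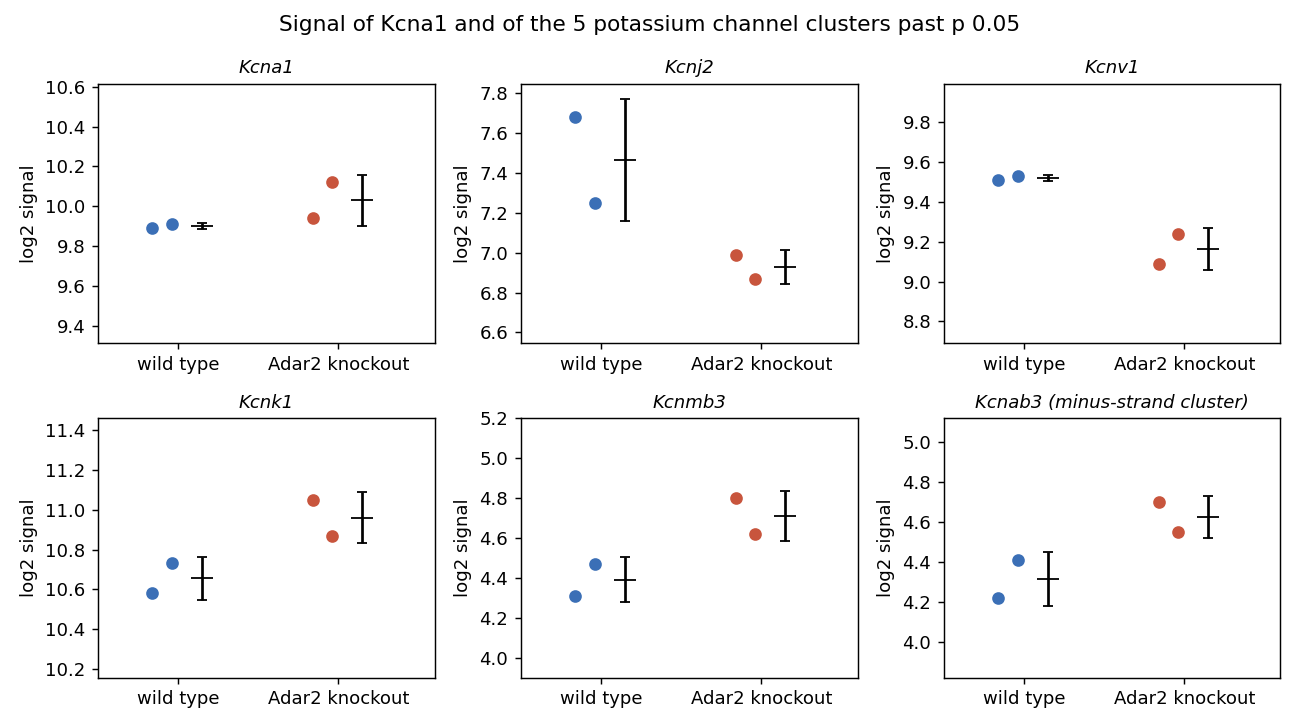
Log2 signal (vertical axes, each spanning the same 1.3 log2 units) of each wild-type array (blue) and Adar2 knockout array (red) for Kcna1 and the 5 potassium channel clusters with an unadjusted limma p below 0.05. Black marks are the group mean and its SD (n = 2), and in each panel both knockout arrays lie on the same side of both wild-type arrays, with a wide wild-type gap for Kcnj2 (7.68 and 7.25).

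Kcnj2 (chromosome 11, 111066164 to 111076825, plus strand) encodes a strong inward rectifier that holds neurons and muscle cells near the potassium equilibrium potential. Its signal was 7.68 and 7.25 in wild type and 6.99 and 6.87 in the knockout. The wild-type arrays differed by 0.43 between themselves, while both stood above the knockout arrays. The log2 difference was -0.535 (SE 0.17, limma p 0.0187, adjusted p 0.834), a 1.45-fold lower level and the largest difference of any member in either direction. Without wild type replicate 1, the higher array, it was -0.32 (p 0.0778), and without wild type replicate 2 it was -0.75. The p was also above 0.05 without knockout replicate 1 (-0.595, p 0.0960), without knockout replicate 2 (-0.475, p 0.1498) and in the test without shrinkage (p 0.139). The neighbouring inward rectifier Kcnj16, whose cluster ends 38.2 kb before that of Kcnj2, differed by -0.08. The related Kir2 genes Kcnj4 and Kcnj14 differed by -0.075 each and Kcnj12 by 0.05, none with a limma p below 0.05.

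Kcnv1 (chromosome 15, 45106284 to 45114934, minus strand) encodes a silent subunit, which forms no channel by itself but alters Kv2 channels. Its signal was 9.51 and 9.53 in wild type and 9.09 and 9.24 in the knockout. The wild-type arrays were close together and both knockout arrays lay below them. The log2 difference was -0.355 (SE 0.11, limma p 0.0190, adjusted p 0.834), or 1.28-fold. The 95% interval ran from -0.63 to -0.083. The difference ranged from -0.43 without knockout replicate 2 to -0.28 without knockout replicate 1, and the unadjusted p was above 0.05 without knockout replicate 1 and without either wild-type array. The 10 silent subunit clusters had a median of -0.095, with 7 below 0, and Kcnv1 was the only one with a limma p below 0.05.

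Kcnk1 (chromosome 8, 125995102 to 126030685, plus strand) encodes TWIK-1, a 2-pore domain leak channel of neurons and astrocytes. Its signal was 10.58 and 10.73 in wild type and 11.05 and 10.87 in the knockout. The groups did not overlap, and the nearest arrays of the 2 genotypes were 10.73 and 10.87. The log2 difference was 0.305 (SE 0.12, limma p 0.0480, adjusted p 0.834), or 1.24-fold. It lost an unadjusted p below 0.05 after median centring (0.265, p 0.0684), in the test without shrinkage (p 0.121) and in the fit with a replicate block (p 0.0929). Leaving out any 1 of the 4 arrays had the same outcome, with differences from 0.215 without knockout replicate 1 to 0.395 without knockout replicate 2.

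The remaining clusters past the unadjusted threshold were close to the Y-linked signals. Kcnmb3 (chromosome 3, 32472321 to 32491969), an auxiliary beta subunit of the large-conductance channel, read 4.31 and 4.47 in wild type and 4.80 and 4.62 in the knockout. Its difference was 0.32 (limma p 0.0421, adjusted p 0.834). The minus-strand Kcnab3 cluster (chromosome 11, 69329825 to 69332122) read 4.22 and 4.41 in wild type and 4.70 and 4.55 in the knockout, a difference of 0.31 (limma p 0.0471, adjusted p 0.834). The plus-strand cluster with the same symbol, that of a cytoplasmic beta subunit of Kv1 channels, read 8.81 and 8.80 in wild type and 8.70 and 8.67 in the knockout. The 2 clusters with the Kcnab3 symbol thus differed in opposite directions, at 0.31 and -0.12, and the plus-strand one had a limma p of 0.282. The minus-strand span lies within the plus-strand span (69326258 to 69333042), and clusters on opposite strands do not read the same transcript. Both low clusters lost the threshold with quantile normalization, cyclic loess and median centring, and when any 1 of the 4 arrays was left out, with differences from 0.23 to 0.41 for Kcnmb3 and from 0.215 to 0.405 for Kcnab3.

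**Figure D2:**
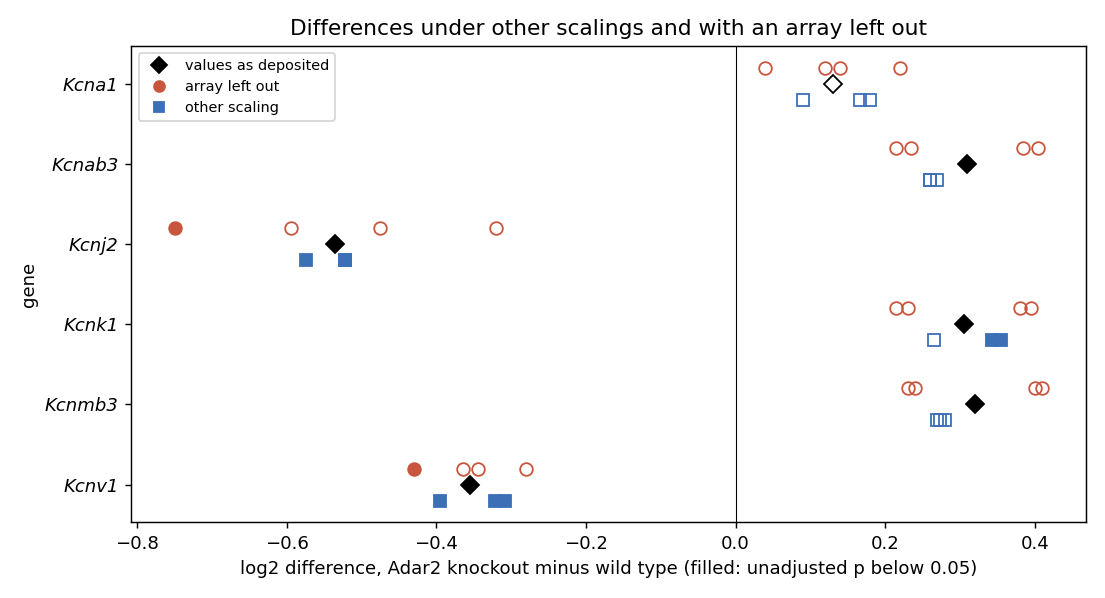
Log2 difference, Adar2 knockout minus wild type, for Kcna1 and the 5 clusters past an unadjusted p of 0.05, with the values as deposited (black), with each array left out (red) and under 3 other scalings (blue). Filled symbols have an unadjusted limma p below 0.05. Each of the 6 clusters keeps its sign in the settings drawn, while Kcnj2 ranges from -0.75 to -0.32. Their groups do not overlap, so leaving out 1 array could not have reversed a sign.

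Differences of this size were set against the gaps between arrays of the same genotype. The median absolute gap over the members was 0.09 for the pair of wild-type arrays and 0.10 for the knockout pair. Between an array of each genotype it was 0.09 to 0.11. By these medians of gaps between single arrays, the genotypes lay about as far apart as replicates did. The difference between genotype means was larger than both gaps in 32 members, 12 higher and 20 lower, which is 31.7% of members against 23.1% of all clusters. The groups did not overlap in 40 members, 15 higher and 25 lower, or 39.6% against 34.1% of all clusters. The difference was under 0.1 either way in 63 members, or 62.4%, against 48.9% of all clusters, and reached 0.2 in 11 members. Signal differed between these sets, since 79 of the 101 members were above the median signal of the array. Among all clusters above it, 23.2% exceeded both gaps, 34.3% had groups that did not overlap and 53.8% differed by under 0.1. The median member SE was 0.12. Taken singly, without correction for their number, the 95% intervals lay within a 2-fold change either way for 101 of 101 members and within 1.5-fold for 92, but within 1.2-fold for only 2.

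**Figure D3:**
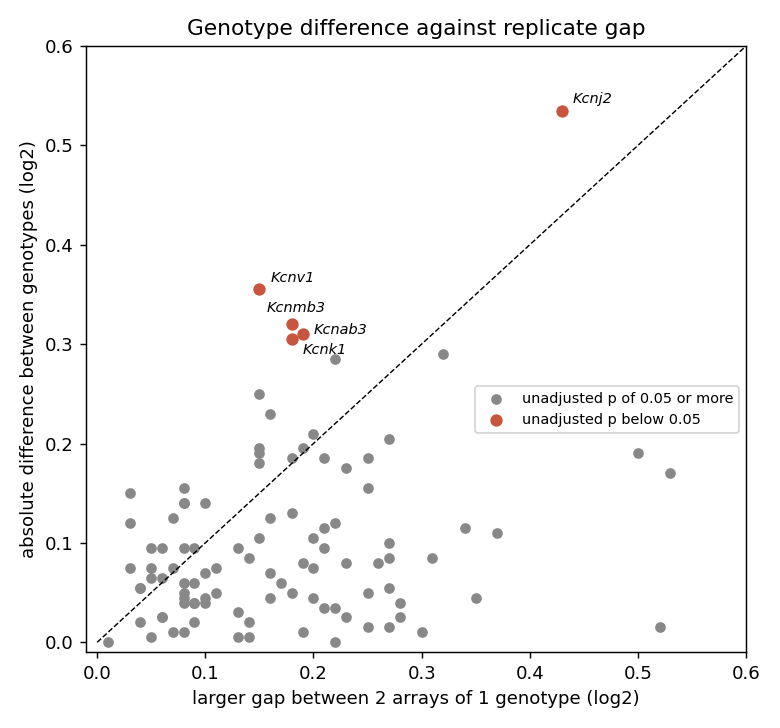
Absolute log2 difference between genotype means (vertical axis) against the larger of the 2 gaps between arrays of the same genotype (horizontal axis, log2) for the 101 potassium channel clusters. Points above the dashed line of equality, 32 in number, differ more between genotypes than between replicates. The 5 red clusters with an unadjusted limma p below 0.05 are among them, and that p is computed from the same differences and gaps.

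More members were lower than higher. The median log2 difference was -0.04, with 63 clusters below 0, 36 above and 2 at 0, while the median of all clusters was 0.005. Below 0 were 62.4% of members and 47.7% of all clusters. Signal strength differed between these sets, since 79 of the 101 members were above the median signal of the array, and of the 16896 clusters above it 57.3% were below 0, with a median of -0.025. Of the 79 members above it 69.6% were below 0, with a median of -0.045. The share of members below 0 was 53.5% after cyclic loess normalization, 60.4% after quantile normalization and 73.3% after median centring, where the shares of all clusters were 49.6%, 50.8% and 58.8%. Leaving out wild type replicate 1 gave 69.3%, wild type replicate 2 55.4%, knockout replicate 1 50.5% and knockout replicate 2 65.3%. Taken array by array, the members' median difference was 0.02 from wild type replicate 1 to replicate 2 and 0.01 from knockout replicate 1 to replicate 2. From a wild-type to a knockout array it was -0.05 and -0.01 for wild type replicate 1 against knockout replicates 1 and 2, and -0.04 and -0.05 for wild type replicate 2. The median over the members was -0.011 after cyclic loess and -0.019 after quantile normalization.

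**Figure D4:**
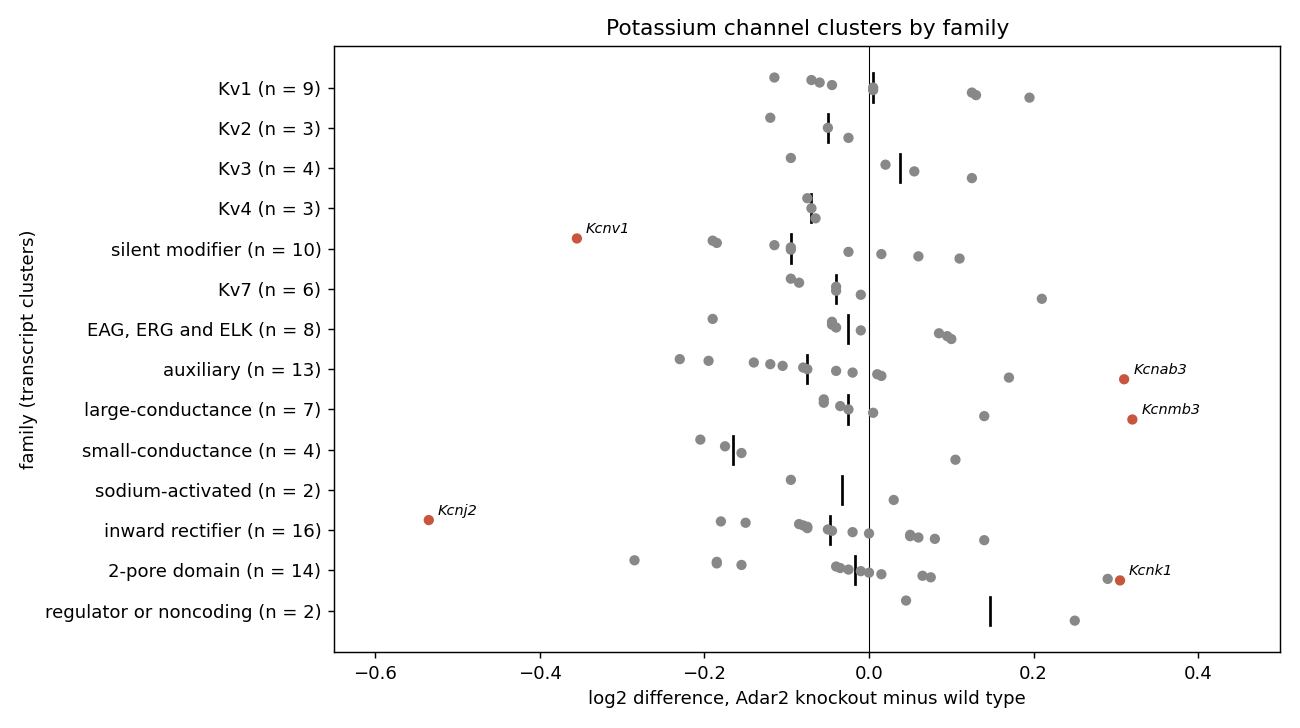
Log2 difference, Adar2 knockout minus wild type, of each potassium channel cluster (points) by family, with the family median as a black bar and clusters with an unadjusted limma p below 0.05 in red and named. Most points lie between -0.2 and 0.2, and family medians run from -0.165 for small-conductance channels to 0.1475 for the 2 clusters of Kcnrg and Kcnq1ot1.

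Among the voltage-gated channels, the 9 Kv1 clusters had a median difference of 0.005, with 5 above and 4 below 0. Kcna2, the usual axonal partner of Kcna1, read 10.55 and 10.75 in wild type and 10.54 and 10.67 in the knockout. Kcna4, an A-type subunit, read 8.02 and 8.15 against 8.09 and 8.09, and for both genes the groups overlapped. Several Kv1 genes are neighbours in the genome. Kcna3, Kcna2 and Kcna10, which lie within 100 kb of their neighbours on chromosome 3, differed by 0.125, -0.045 and 0.005, and Kcna6, whose minus-strand cluster starts 62.5 kb after Kcna1, differed by -0.07. Of the beta subunits that dock on Kv1 channels, Kcnab1 differed by -0.105 (SE 0.12) and Kcnab2 by -0.02 (SE 0.10).

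The fast delayed rectifiers of the Kv3 family had a median of 0.0375, which was -0.0025 after median centring, 0.087 after cyclic loess and 0.072 after quantile normalization. Kcnc1, which lets interneurons fire at high rates, read 10.14 and 10.16 in wild type and 10.19 and 10.15 in the knockout, so the groups overlapped, and it differed by 0.02 (SE 0.10). All 3 clusters of the Kv4 family were below 0, with a median of -0.07 and no limma p below 0.05, and 2 of 3 were below 0 without wild type replicate 2 and without knockout replicate 1. Kcnd2, the main A-type subunit of dendrites, read 11.03 and 11.06 in wild type and 10.98 and 10.96 in the knockout, a difference of -0.075 (SE 0.10). For Kcnq3, which contributes to the M-current, the difference was -0.095 (SE 0.10), and for the EAG channel gene Kcnh1 it was -0.04 (SE 0.10).

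The Kcnip genes encode calcium-binding proteins that assemble with Kv4 channels. Except for Kcnip2 and Kcnn2, the Kcnip and Kcnn genes were singled out after their values were seen. All 4 Kcnip clusters were below 0, with a median of -0.1675, and 3 of 4 were below 0 after cyclic loess normalization and without knockout replicate 1. The median was -0.1075 without wild type replicate 1 and -0.24 without knockout replicate 1. Kcnip3, which also acts as a transcriptional repressor, read 9.95 and 9.79 in wild type and 9.70 and 9.58 in the knockout. Both knockout arrays were below both wild-type arrays. The difference was -0.23 (SE 0.12, limma p 0.0979, adjusted p 0.841). Kcnip2 read 9.36 and 9.22 against 9.19 and 9.00 (difference -0.195, limma p 0.164), and Kcnip1 read 9.35 and 9.25 against 9.21 and 9.11 (difference -0.14, limma p 0.248). For Kcnip4 the knockout arrays, at 9.16 and 9.44, lay on either side of the wild-type arrays at 9.36 and 9.32.

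Kcnn1, Kcnn2 and Kcnn3 encode the small-conductance calcium-activated channels that produce the afterhyperpolarisation. They differed by -0.175 (SE 0.12), -0.205 (SE 0.14) and -0.155 (SE 0.13). Kcnn2 read 7.99 and 7.72 in wild type and 7.76 and 7.54 in the knockout, so the groups overlapped and the wild-type gap of 0.27 was larger than the difference. Kcnn3 likewise overlapped, with 8.26 and 8.01 in wild type and 7.95 and 8.01 in the knockout. Without wild type replicate 1 the median of the 4 small-conductance clusters was -0.05, against -0.165 with all arrays. The intermediate-conductance gene Kcnn4 differed by 0.105.

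**Figure D5:**
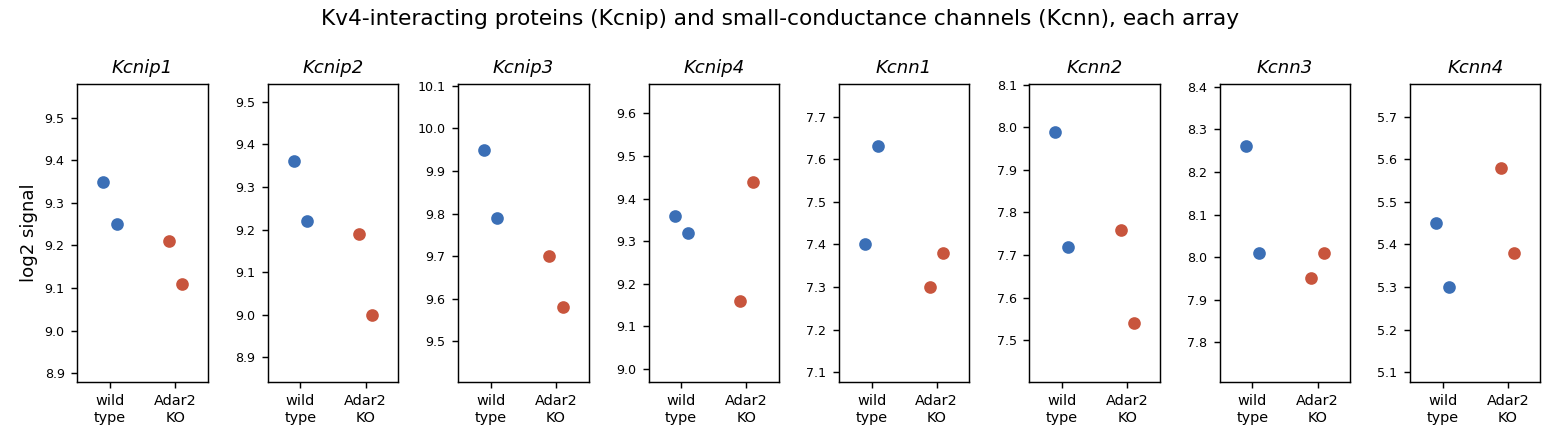
Log2 signal of each wild-type (blue) and Adar2 knockout (red) array for the 4 Kcnip genes, which encode proteins that bind Kv4 channels, and the 4 Kcnn genes, each vertical axis spanning 0.7 log2 units. Groups are apart for Kcnip1, Kcnip2, Kcnip3 and Kcnn1 and overlap or touch for the others, and no limma p was below 0.05. Over all clusters of the array, groups were apart in 34.1%.

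The 7 large-conductance clusters, Kcnmb3 among them, had a median of -0.025. Kcnma1, the pore of the large-conductance calcium-activated channel, read 10.80 and 10.66 in wild type and 10.70 and 10.77 in the knockout, a difference of 0.005 (SE 0.11). Its neuronal beta subunit Kcnmb4 read 8.29 and 8.28 against 8.29 and 8.23 in its minus-strand cluster. Kcnt1, a sodium-activated channel, differed by 0.03 (SE 0.11). The 95% intervals of Kcnma1, Kcnt1 and this Kcnmb4 cluster held 0.

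The 16 inward rectifier clusters had a median of -0.0475, with 10 below 0, and none but Kcnj2 had a limma p below 0.05. Kcnj3 and Kcnj6 encode G protein-gated channels that mediate slow inhibition. The plus-strand Kcnj3 cluster read 9.75 and 9.81 in wild type and 9.54 and 9.85 in the knockout, and Kcnj6 read 7.90 and 7.91 in both genotypes. Kcnj10, the main potassium-buffering channel of astrocytes, read 11.10 and 11.06 against 10.99 and 11.07 and differed by -0.05 (SE 0.10). The mean of 6 astrocyte markers was 9.49 and 9.45 in wild type and 9.38 and 9.35 in the knockout, with 4 of 6 below 0 and 0 with an unadjusted p below 0.05. In RNA of a whole tissue, fewer cells of a type and less RNA per cell cannot be told apart. Kcnj8, of pericytes and smooth muscle, differed by -0.02 (SE 0.11), and the mean of 9 pericyte and vessel clusters was 8.07 and 8.09 against 8.16 and 8.07.

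Kcnj13 and Kcne2, which are known for their expression in the choroid plexus epithelium, varied mainly between arrays of the same genotype. Kcnj13 read 8.77 and 9.12 in wild type and 8.77 and 9.03 in the knockout. Kcne2 read 5.34 and 5.86 in wild type and 5.55 and 5.68 in the knockout, the widest wild-type gap of any member at 0.52. The mean of 10 choroid plexus markers was 8.12 and 8.38 in wild type and 8.23 and 8.31 in the knockout, none of them at the Y-linked level. Wild type replicate 1 was thus the lowest array, alone or jointly, in both genes and in the marker mean, and wild type replicate 2 the highest. The part of choroid plexus content in these 2 genes was not tested. The genotype differences were -0.045 (SE 0.16) for Kcnj13 and 0.015 (SE 0.19) for Kcne2.

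The 14 clusters of 2-pore domain channels had a median of -0.0175. Kcnk2, which encodes the mechanosensitive TREK-1, read 8.62 and 8.69 in wild type and 8.46 and 8.54 in the knockout, a difference of -0.155 (SE 0.11, limma p 0.194). The next largest differences of this family after Kcnk1 belonged to a pair of neighbours on chromosome 14, chosen after their values were seen. Kcnk5 (20140058 to 20181782) read 5.68 and 5.83 in wild type and 5.36 and 5.58 in the knockout, and Kcnk16 (20262756 to 20269162), 81.0 kb further on, read 5.44 and 5.76 against 5.91 and 5.87. They differed in opposite directions, at -0.285 (limma p 0.0685) and 0.29 (limma p 0.0825).

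Both strands of 6 genes carried a cluster with the same symbol. By the RefSeq promoter annotation, the Kcna6, Kcnj3, Kcnmb4 and Kcnq5 symbols are each given to 1 cluster on the strand opposite to the gene, and the strand of Kcnab3 was not in that table. The opposite-strand cluster of Kcnj3 (chromosome 2, 55433514 to 55437860) read 6.19 and 6.20 in wild type and 6.03 and 6.06 in the knockout, with a difference of -0.15 (SE 0.10, limma p 0.191), which passed 0.05 only in the test without shrinkage (p 0.0109). Those of Kcna6, Kcnmb4 and Kcnq5 differed by -0.115, -0.055 and -0.01. Kcnq1ot1, the noncoding RNA transcribed against Kcnq1, differed by 0.045 and Kcnq1 by -0.085.

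Genes whose products bind, place or modulate potassium channels without carrying a Kcn symbol were examined beside them. Of 35 such genes 34 had a cluster, 38 clusters in all. The median difference was -0.025, with 16 clusters above and 21 below 0. Only Lrrc26 among them, 1 cluster of 38, had an unadjusted limma p below 0.05, against 5.95% of all clusters. It encodes a gamma subunit of the large-conductance channel and read 6.40 and 6.46 in wild type and 6.78 and 6.72 in the knockout, a difference of 0.32 (SE 0.10, limma p 0.0226, adjusted p 0.834). The genotypes did not overlap. Without wild type replicate 1, 0 partner clusters passed, against 3.61% of all clusters, and after median centring 2 did, against 6.01%. Dpp6 and Dpp10, which assemble with Kv4 and Kcnip proteins, differed by -0.125 (SE 0.10) and -0.035 (SE 0.11), and Cntnap2, which gathers Kv1 channels beside the node of Ranvier, by -0.12 (SE 0.10).

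Markers of brain regions and of other tissue also differed between the arrays. All 6 striatal clusters were lower in the knockout, with a mean of 9.46 and 9.42 in wild type and 9.28 and 9.25 in the knockout, 1 with an unadjusted p below 0.05 (Drd1a, -0.32, limma p 0.0325). All 9 pituitary clusters were higher, with means of 5.26 and 4.96 against 6.25 and 5.92, 3 had an unadjusted limma p below 0.05, and 2 were at the Y-linked level. Prl (4.12) and Gh (3.17) had by far the widest differences of this list, whose median was 0.18, and the other 7 clusters lay between 0.01 for Tshb and 0.51 for Pomc. Neuronal markers had means of 11.27 and 11.30 against 11.27 and 11.24. Microglial markers had means of 7.63 and 7.63 against 7.50 and 7.55, while the oligodendrocyte, cerebellar and thalamic means overlapped between the genotypes. Of the 6 oligodendrocyte clusters 5 were below 0, and Mog had an unadjusted p below 0.05 (-0.35, limma p 0.0258). The olfactory bulb mean was 7.63 and 7.78 against 7.74 and 7.14, lowest in knockout replicate 2, and Cdhr1 of this list had an unadjusted p below 0.05 (-0.785, limma p 0.0214). The part of regional composition in the values of Kcnj2, Kcnv1 and Kcnk1 was not tested.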

How the data were processed

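Total RNA of dissected brains of wild-type and knockout mice was prepared with a kit for whole transcripts and read on Affymetrix mouse gene arrays. The authors deposited normalized log2 signals per transcript cluster and array, given to 2 decimals. Affymetrix Expression Console and RMA are named in the submitters' processing notes, with version and settings not given in the sources used here. The deposited table also holds the authors' group means, ratios, fold changes and p-values, which were not used. Array labels gave genotype and replicate number. The 2 genotypes were compared by a two-sided test on a linear model with genotype alone (lmFit, then eBayes, of limma 3.58.1 under R 4.3.3) over all 33793 clusters, with Benjamini-Hochberg adjustment over all of them, no filter and no further normalization. The prior SD was 0.125 with 3.79 degrees of freedom. Intervals are 95% intervals from limma's moderated SE. Only 2 arrays per genotype limit the precision, and the table gives no detection calls.

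The members, families, gene lists and alternatives were chosen with earlier results of these data known. Named genes were Kcna1, up to 10 rises and 10 falls among non-overlapping clusters past an unadjusted p of 0.05, and members listed for their known roles. Other genes named were chosen after their values were seen. Of the members 0 were marked as having probes that can cross-hybridize, against 4954 of all clusters. The deposited table gives coordinates without naming a genome build. All 95 symbols were in RefSeq of GRCm38.p6, and 25 of the 101 clusters had the same span there and 76 an overlapping one. The strand was known for 70 symbols. The 14 alternatives changed the scaling, the signal filter, the variance model, the arrays used, the replicate term and the cluster choice. Calculations were tested on simulated data. Python 3.11.15, pandas 2.3.3 and matplotlib 3.10.9 served for tables and plots. Editing of Kcna1 was not analysed here, and some members are not reported here by name.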

Additional observations from a re-analysis of the deposited data

How the results depend on the processing

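Over the 14 alternatives, Kcna1 kept a positive difference and an unadjusted p above 0.05, from 0.04 to 0.22 with single arrays left out and from 0.09 to 0.18 otherwise. The count past an adjusted p of 0.05 and the count past 2-fold stayed at 0. The 5 clusters with an unadjusted p below 0.05 became 3 with an intensity trend, 3 after median centring, 3 among clusters above the median signal, 3 in the pooled-variance test without shrinkage and 3 with the replicate block. Of these, 3, 2, 3, 1 and 2 were among the 5, and the shares of all clusters tested in these settings were 5.83%, 6.01%, 5.85%, 5.61% and 5.01%. Leaving out each array in turn gave 0 to 2 such clusters, where 3.61% to 5.33% of all clusters passed, on the assumption that the remaining array of that genotype varies as the other genotype does. Kcnj2 kept an unadjusted p below 0.05 in 10 of 14 alternatives, Kcnv1 in 11 of 14 and Kcnk1 in 7 of 14. Kcnmb3 did so in 3 of 13 and the minus-strand Kcnab3 cluster in 2 of 12. All 5 kept their sign under the other scalings. Leaving out 1 array cannot reverse the sign for Kcna1 or these 5, because their groups do not overlap. The remaining settings leave the difference itself unchanged. The members' median of -0.04 moved to -0.08 after median centring, which shifts all clusters to -0.035, and to -0.011 and -0.019 after cyclic loess and quantile normalization, and lay from -0.04 to -0.01 with single arrays left out. The partner count of 1 became 2 after median centring and ranged from 0 to 1 with single arrays left out. Causes were not tested in any setting, including those that left out clusters or arrays. Replicate numbers did not pair the arrays by the labels. Deviations of same-numbered arrays had a Pearson's r of 0.0516 over all clusters and 0.228 over the members, which are not independent replicates, and the replicate block gave a Kcna1 difference of 0.13 (limma p 0.272), 0 clusters past an adjusted p of 0.05, 0 past 2-fold, a median of -0.04 and 1 partner cluster. With 2 arrays per genotype, the 95% interval lay within 1.2-fold for 2 of 101 members, so smaller differences were mostly not resolved.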
